A study of Mus musculus with 12 samples.

Results

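The circadian clock genes described here are Arntl, Npas2, Clock, Per1, Per2, Per3, Nr1d1, Nr1d2, Dbp and Tef, 10 of the 23042 gene entries whose RNA was measured in WT and MED13cTg mice, in the heart ventricles and in the epididymal fat, a white adipose tissue (WAT). They were chosen by name as activators, repressors and output factors of the clock, and each was found in 1 entry of the table of either tissue. The entry of Per1 joins it with its neighbour Vamp2, so that its value is uncertain, while the other 9 stand alone. MED13cTg mice carry a transgene that raises MED13, a subunit of the Mediator complex of transcription, in the heart, and the promoter that drives it is not given in the sources used here. All mice were male C57BL/6 littermates with no further allele or agent named, aged 6 weeks per the labels, on normal chow and fed ad libitum, and all tissue was taken in the late afternoon. Each of the 4 groups (WT ventricles, MED13cTg ventricles, WT WAT, MED13cTg WAT) held 3 libraries. Because there was 1 time of day, the levels give the state of the clock at that time and not a phase or an amplitude.

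The clock is a feedback loop of transcription. ARNTL (BMAL1) pairs with CLOCK or its paralog NPAS2 and binds E-box sequences to activate the Per and Cry genes, whose proteins inhibit that pair, and also Nr1d1 and Nr1d2, whose proteins REV-ERBα and REV-ERBβ bind RORE sequences and repress Arntl and Npas2. Dbp and Tef encode PAR bZIP factors that carry the rhythm to output genes through D-box sequences. In mouse tissues outside the brain, Arntl and Npas2 therefore run nearly opposite to Nr1d1, Dbp and the Per genes over the day, and the clocks of heart and fat also follow feeding, glucocorticoid and body temperature.

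The sequences that link the genes of this loop were looked for in RefSeq promoter windows of build GRCm38.p6, from 250 bases before to 50 bases after a start. Such windows were at hand for 9 of the 10 clock genes, all but Per2. The E-box CACGTG, which reads the same on both strands, was in 7.15% of 32851 windows and in those of Per1 and Tef. The D-box TTATGTAA, searched on both strands, was in 0.938% of windows and, of the clock genes, in that of Per3. The RORE consensus, also searched on both strands, was in 0.384% of windows and, of the clock genes, in that of Arntl. Of 23 other clock pathway genes with a window, 7 held the E-box in at least 1 window, among them Ciart with 3 copies. Counts of genes and shares of windows are unlike units, since a gene with several windows has more chances of a match. No match says only that these letters are not in the window. Printed on the strand of the gene and with the match in capitals, are the stretches of Per1 (chr11:69098736-69098835, plus strand), Tef (chr15:81802499-81802598, plus strand), Per3 (chr4:151044794-151044893, minus strand), Arntl (chr7:113207527-113207556, plus strand) and Ciart (chr3:95882256-95882355, minus strand), since they hold each kind of element once or more. A match is a description and not a site of binding.
Per1: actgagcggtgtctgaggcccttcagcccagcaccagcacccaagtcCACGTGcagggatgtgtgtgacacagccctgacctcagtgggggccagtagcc
Tef: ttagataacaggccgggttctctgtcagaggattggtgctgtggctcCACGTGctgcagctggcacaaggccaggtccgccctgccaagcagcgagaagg
Per3: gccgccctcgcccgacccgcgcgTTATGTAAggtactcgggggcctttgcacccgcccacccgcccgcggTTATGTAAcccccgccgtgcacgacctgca
Arntl: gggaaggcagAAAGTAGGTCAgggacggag
Ciart: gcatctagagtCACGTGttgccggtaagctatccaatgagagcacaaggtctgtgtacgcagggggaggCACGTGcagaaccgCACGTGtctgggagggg
The E-box of Per1 begins 166 bases before its start and those of Tef 127 and 138 bases before the starts of its 2 windows, of which the first is printed, the D-boxes of Per3 begin 205 and 158 bases before its start, and the RORE match of Arntl begins at base 27 after its start.

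Expression is given in FPKM, fragments scaled to the length of the transcript and to the mapped fragments of the library, so that levels can be compared between genes. The sequencing depth is unknown from these values. Med13 was 10.6 to 13.1 FPKM in WT and 181 to 263 FPKM in MED13cTg ventricles, and 7.84 to 11.0 FPKM over all 6 WAT libraries, so that the transgene was seen where the labels put it. Rank correlations between libraries over all genes tested ran from 0.944 to 0.969 in ventricles and from 0.35 to 0.972 in WAT. Average-linkage clustering, set to give 2 clusters, divided the ventricle libraries across genotype, WT 1 with MED13cTg 1 and 2 against WT 2 and 3 with MED13cTg 3, and the clusters were the same when the clock genes were left out. All 8 ventricular cardiomyocyte markers were present in every ventricle library, with a summed level of 66519 to 94768 FPKM. The summed level of 5 atrial cardiomyocyte markers was 2443 FPKM in MED13cTg 2 and 447 to 1160 FPKM in the other ventricle libraries. Most of it was Nppa, at 892, 1773 and 1088 FPKM across MED13cTg 1 to 3 and 368 to 564 FPKM in WT. The authors also report raised Nppa expression in MED13cTg ventricles. Myl7 was 322 FPKM in MED13cTg 2 and 20.9 to 63.5 FPKM in the other ventricle libraries, and Myl4 and Sln were likewise highest in MED13cTg 2. Bmp10, 1 of the 5, was listed at 0 in all but MED13cTg 2. The 13 adipocyte markers were present in every WAT library. In WAT, however, 2 libraries stood apart. The summed level of 18 epididymis entries was 104858 to 138337 FPKM in 4 libraries, 16793 FPKM in MED13cTg 1 and 348 FPKM in MED13cTg 2. That of the adipocyte markers was 13815 to 32933 FPKM in the same 4 libraries, 1558 FPKM in MED13cTg 1 and 82431 FPKM in MED13cTg 2, and that of 7 testis germ cell markers was 13638 FPKM in MED13cTg 1 against 5.83 to 344 FPKM elsewhere. Fold changes in WAT that rest on these libraries are therefore given with and without both, the latter from a fit of the 3 WT libraries against MED13cTg 3. In each of those 4 libraries the epididymis sum was above the adipocyte sum, so that neither they nor that fit show fat alone. Only in MED13cTg 2 was the adipocyte sum the higher. Fewer cells of a type and less RNA per cell cannot be told apart in such bulk samples.

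In WT ventricles the output factors and most repressors were abundant and the activators were low. Tef had the highest mean, 133 ± 12.1 FPKM (SD, n = 3), followed by Per1 at 91.7 ± 15.7, Nr1d2 at 87.4 ± 9.99 and Dbp at 70.3 ± 24.1 FPKM. Per3 at 38.8 ± 2.61, Nr1d1 at 31.1 ± 10.9 and Per2 at 26.5 ± 3.90 FPKM came next. Clock at 6.84 ± 1.73, Npas2 at 1.64 ± 0.445 and Arntl at 0.808 ± 0.487 FPKM closed the order. The level of Per1 is that of its entry joined with Vamp2, so its place is uncertain. The WT libraries of Per1, Nr1d2 and Dbp overlapped from neighbour to neighbour, as did those of Per3, Nr1d1 and Per2 and those of Npas2 and Arntl, while Tef lay above Per1 and Clock lay between Per2 and Npas2 in every WT library.

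**Figure D1:**
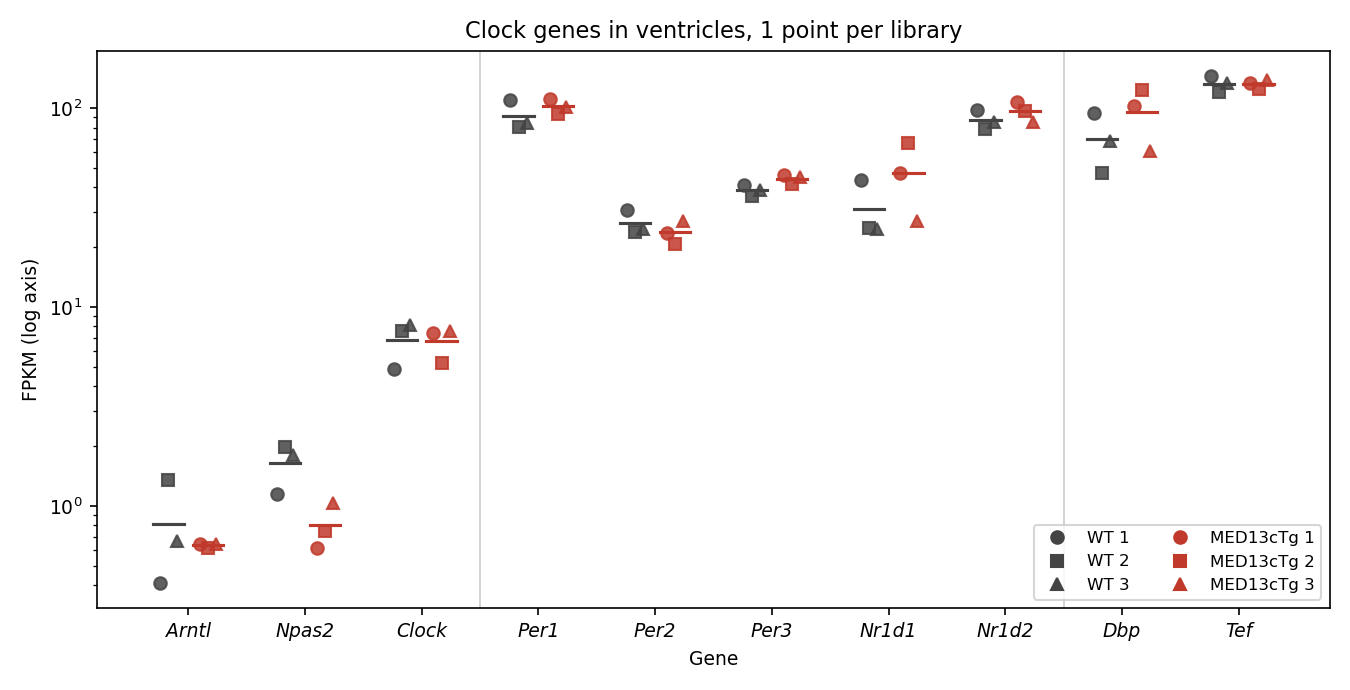
FPKM of the 10 clock genes in ventricles on a log axis, with 1 point per library (grey WT, red MED13cTg, marker shape for the replicate number) and a line at each group's mean. Npas2 is lower in the 3 MED13cTg libraries than in any WT library, Per3 is slightly higher in them, and the other genes overlap.

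None of the clock genes passed the test between genotypes in ventricles. With limma on log2(FPKM + 1), 9 of the 10 had a mean of at least 1 FPKM and were tested, 0 had an adjusted p under 0.05 (adjusted p 0.966 to 0.997, Benjamini-Hochberg over 12589 genes), and 1 had an unadjusted p under 0.05. Over all genes tested, 0.0556% passed the adjusted and 4.73% the unadjusted threshold. Of the 9, 5 had a higher and 4 a lower mean in MED13cTg, with a median log2 fold change of 0.14 beside -0.014 over all genes. All 3 MED13cTg libraries lay above all WT libraries for 1 clock gene, Per3, and below them for 1, Npas2, while 3.46% and 5.85% of all genes lay so. For 3 against 3 libraries the smallest p of an exact two-sided permutation test is 0.1.

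Among the activators, Npas2, the paralog of Clock (chr1:39251116-39420085, build mm9, as are the other positions that follow), was 1.14, 1.99 and 1.80 FPKM across WT 1 to 3 against 0.616, 0.744 and 1.03 FPKM across MED13cTg 1 to 3. The groups did not overlap, and the WT mean was 2.06 times the MED13cTg mean. Npas2 passed the minimum of 1 FPKM, with a mean of 1.22 FPKM, only through WT, at 1.64 FPKM beside 0.796 FPKM in MED13cTg. The log2 fold change on log2(FPKM + 1), a scale that understates changes of such low genes, was -0.55 (SE 0.18, 95% interval -0.98 to -0.12, adjusted p = 0.966 by limma, exact permutation p = 0.1). Within the library clusters the difference was -0.35 among WT 1, MED13cTg 1 and MED13cTg 2, and -0.51 among WT 2, WT 3 and MED13cTg 3. Arntl (chr7:120350978-120457640), a partner of Clock and Npas2, was 0.411, 1.35 and 0.663 FPKM across WT 1 to 3 against 0.645, 0.613 and 0.641 FPKM across MED13cTg 1 to 3. Its mean of 0.721 FPKM was under the minimum for the test. The MED13cTg libraries lay close together, inside the range of the WT libraries. Clock (chr5:76641201-76733717) was 4.87, 7.54 and 8.11 FPKM across WT 1 to 3 against 7.41, 5.22 and 7.58 FPKM across MED13cTg 1 to 3, with groups that overlapped and a log2 fold change of -0.0092 (SE 0.21, 95% interval -0.51 to 0.49, adjusted p = 0.997 by limma).

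Among the repressors, the nuclear receptor gene Nr1d1 (chr11:98603186-98636556) was 43.7, 25.0 and 24.6 FPKM across WT 1 to 3 against 47.6, 67.1 and 27.1 FPKM across MED13cTg 1 to 3. WT 1 and MED13cTg 1 and 2 were high, the other 3 libraries were low, and the groups overlapped. The log2 fold change was 0.55 (SE 0.36, 95% interval -0.31 to 1.41, adjusted p = 0.966 by limma), and with the library cluster as a covariate it was 0.242. Within the clusters it was 0.36 and 0.12, and without MED13cTg 2, the ventricle library with the high atrial markers, it was 0.252. Its paralog Nr1d2 (chr14:19036569-19071620) was 98.2, 78.5 and 85.5 FPKM across WT 1 to 3 against 108, 97.0 and 85.0 FPKM across MED13cTg 1 to 3, high in the same 3 libraries.

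The Per genes, whose proteins inhibit the ARNTL complexes, were not among those that the clusters separated. Per1 (with Vamp2, chr11:68902029-68923459) was 109.7, 80.9 and 84.6 FPKM across WT 1 to 3 against 112, 93.8 and 101 FPKM across MED13cTg 1 to 3. Per2 (chr1:93312558-93355905) was 30.9, 23.8 and 24.7 FPKM across WT 1 to 3 against 23.7, 20.9 and 27.2 FPKM across MED13cTg 1 to 3. Both overlapped between genotypes. Per3 (chr4:150377763-150418731) was 41.3, 36.1 and 38.9 FPKM across WT 1 to 3 against 46.1, 41.5 and 45.3 FPKM across MED13cTg 1 to 3. The lowest MED13cTg library was just above the highest WT library, and the log2 fold change was 0.19 (SE 0.11, 95% interval -0.062 to 0.44, adjusted p = 0.966 by limma).

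Of the output factors, Dbp (chr7:52960616-52973372) was 95.3, 47.2 and 68.2 FPKM across WT 1 to 3 against 103, 123.4 and 61.1 FPKM across MED13cTg 1 to 3, with WT 1 and MED13cTg 1 and 2 again the 3 high libraries. The log2 fold change was 0.44 (SE 0.33, 95% interval -0.35 to 1.24, adjusted p = 0.966 by limma), 0.173 with the library cluster as a covariate, 0.24 and 0.10 within the clusters, 0.233 without MED13cTg 2 and 0.189 without WT 2. The part of the atrial RNA in the levels of Nr1d1 and Dbp was not tested. Tef (chr15:81628585-81657293) was 145, 121 and 134 FPKM across WT 1 to 3 against 135, 125 and 139 FPKM across MED13cTg 1 to 3, with a log2 fold change of -0.0056 (SE 0.12, 95% interval -0.29 to 0.28). In every library of the cluster of WT 1, Dbp, Nr1d1 and Nr1d2 were above all libraries of the other cluster. Clock was below them, and the other 6 of the 10 clock genes overlapped between the clusters. Over all genes tested, 23.1% were separated on the higher and 17.1% on the lower side. Whether clock genes were separated more often than other genes was not tested. The part of the clusters in the genotype values of Dbp, Nr1d1, Nr1d2 and Clock was not tested beyond the covariate and within-cluster values given here.

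**Figure D2:**
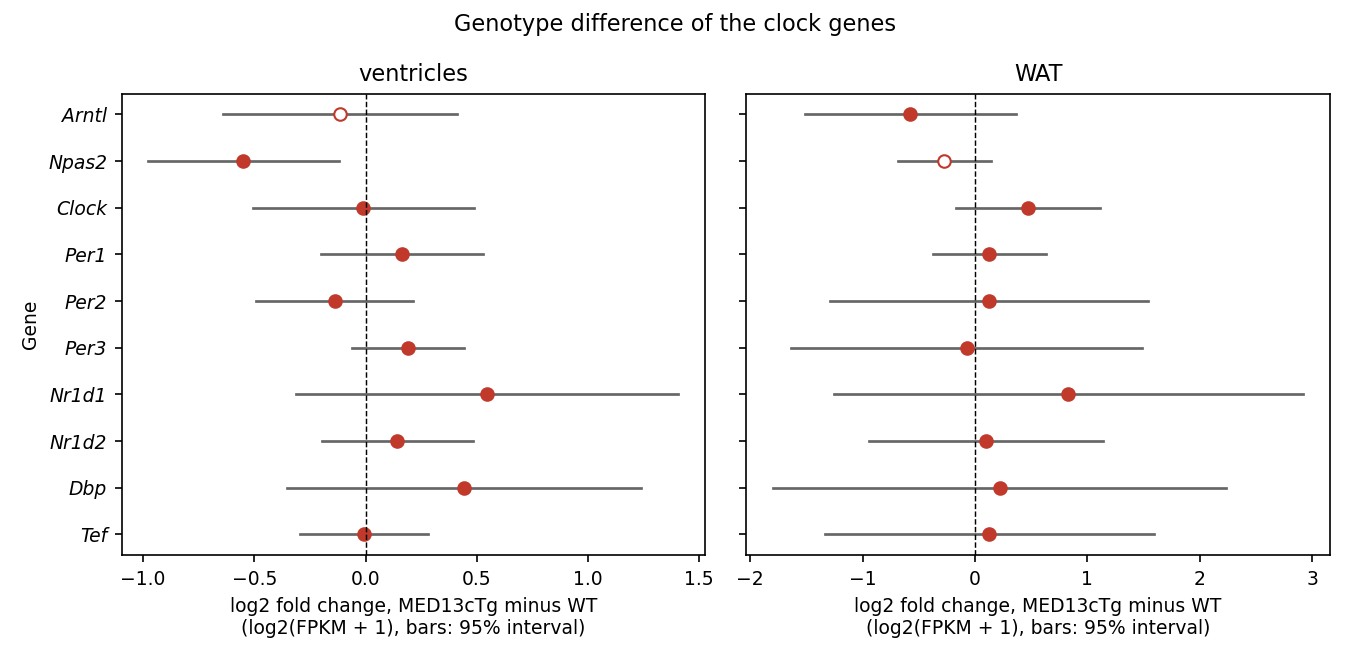
Log2 fold change of each clock gene, MED13cTg minus WT on log2(FPKM + 1), with bars for the 95% interval of limma, in ventricles and in WAT. Open points are genes under the mean of 1 FPKM (Arntl in ventricles, Npas2 in WAT) from the fit without a minimum. Of the 18 filled points, that of Npas2 in ventricles at -0.55 has an interval that leaves out 0, and the intervals in WAT are wider.

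In WT WAT, the order of levels was Per1 (73.4 ± 4.46 FPKM, SD, n = 3), Tef (42.8 ± 2.44), Nr1d2 (29.6 ± 1.54), Dbp (26.6 ± 3.48), Per3 (20.2 ± 1.78), Nr1d1 (12.6 ± 2.26), Per2 (6.14 ± 1.60), Clock (4.42 ± 0.365), Arntl (3.43 ± 0.295) and Npas2 (0.904 ± 0.114). Nr1d2 and Dbp were the neighbours that overlapped, and every other neighbour in this order was separate in the 3 WT libraries. Per1 is again the entry joined with Vamp2, so its first place is uncertain. The tables of ventricles and WAT were estimated separately, and levels are set side by side with no test between tissues. In the WT WAT libraries the epididymis sum was above the adipocyte sum, as given above, so their levels are not those of fat alone. Arntl was 3.09 to 3.63 FPKM in WT WAT beside 0.411 to 1.35 FPKM in WT ventricles, and Dbp was 22.6 to 29.0 beside 47.2 to 95.3 FPKM.

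**Figure D3:**
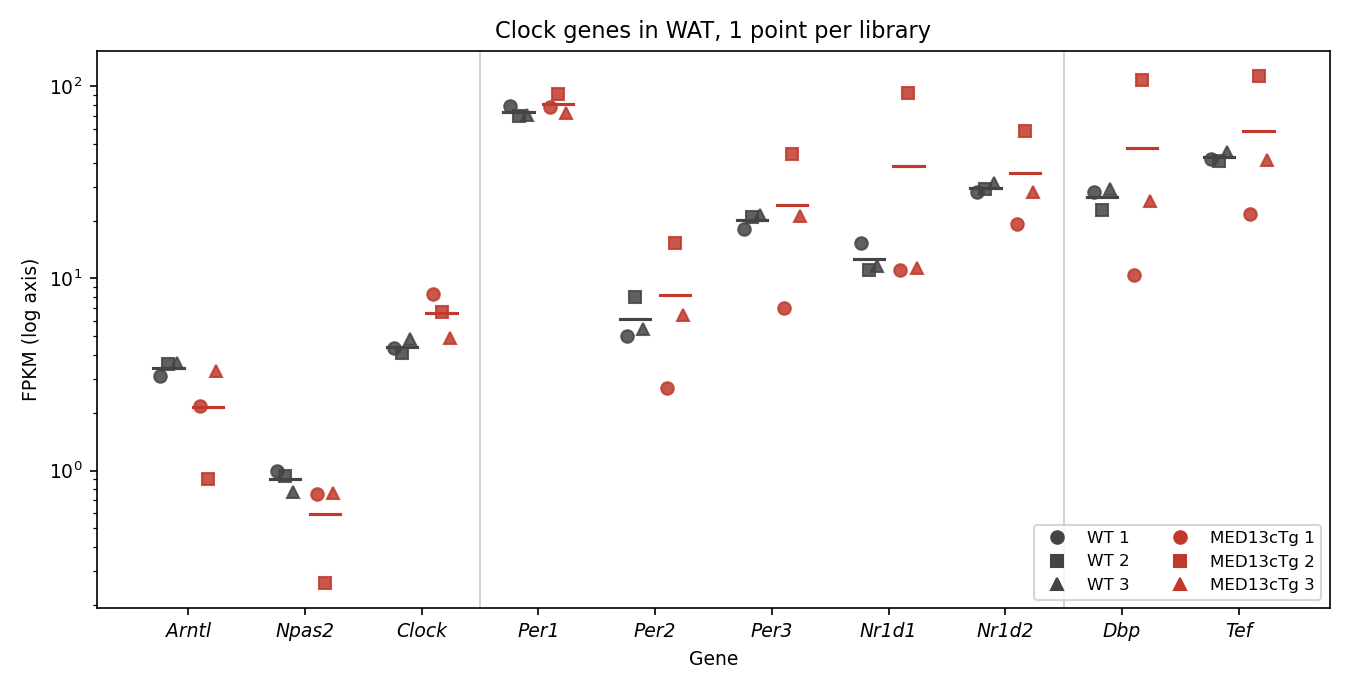
FPKM of the 10 clock genes in WAT on a log axis, with 1 point per library (grey WT, red MED13cTg, marker shape for the replicate number) and a line at each group's mean. MED13cTg 2 is the highest of 6 libraries for 7 genes from Per1 to Tef and the lowest for Arntl and Npas2, whereas MED13cTg 3 sits among the WT libraries.

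None of the clock genes passed the test in WAT either. By limma 9 of the 10 were tested, 0 had an adjusted p under 0.05 (adjusted p 0.738 to 0.966, over 14967 genes) and 0 had an unadjusted p under 0.05, where 0.0134% and 1.25% of all genes did. With the replicate number as a block, an alternative since the labels give no pairs, 0 rather than 2 of all genes passed, with 296 at an unadjusted p under 0.05. Of the 9 clock genes tested, 7 had a higher and 2 a lower mean on the log2 scale in MED13cTg, with a median log2 fold change of 0.13 beside 0.012 over all genes. All 3 MED13cTg libraries lay above WT for Clock, and below it for none of the 9 tested, while 4.88% and 7.8% of all genes lay so. The 3 MED13cTg libraries were more spread than the WT libraries for each clock gene, with a coefficient of variation of 109.8% against 13.1% for Dbp and 11.3% against 6.08% for Per1. MED13cTg 2 was highest of the 6 libraries for 7 clock genes and lowest for 2, MED13cTg 1 was lowest for 6, and MED13cTg 3 lay within the range of the WT libraries for 8 of 10.

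The activators did not run together in WAT. Arntl was 3.09, 3.58 and 3.63 FPKM across WT 1 to 3 against 2.18, 0.909 and 3.32 FPKM across MED13cTg 1 to 3. MED13cTg 2 was lowest, 3.78-fold below the WT mean, and MED13cTg 3 lay inside the WT range. Its log2 fold change of -0.58 (SE 0.38, 95% interval -1.51 to 0.36, adjusted p = 0.738 by limma) was -0.036 without MED13cTg 1 and 2. Npas2 was 0.992, 0.943 and 0.775 FPKM across WT 1 to 3 against 0.752, 0.262 and 0.766 FPKM across MED13cTg 1 to 3, all under the lowest WT library, in MED13cTg 1 and 3 by a narrow margin. Its mean of 0.748 FPKM was under the minimum for the test. Clock was 4.33, 4.11 and 4.82 FPKM across WT 1 to 3 against 8.27, 6.73 and 4.92 FPKM across MED13cTg 1 to 3. The groups did not overlap, although MED13cTg 3 exceeded WT 3 only slightly, and the log2 fold change was 0.47 (SE 0.26, 95% interval -0.17 to 1.11, adjusted p = 0.738 by limma, exact permutation p = 0.1), or 0.13 without MED13cTg 1 and 2.

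Among the repressors in WAT, Nr1d1 was 15.2, 11.1 and 11.6 FPKM across WT 1 to 3 against 11.1, 92.8 and 11.3 FPKM across MED13cTg 1 to 3. MED13cTg 2 was 7.35-fold above the WT mean, and the other 2 MED13cTg libraries were at the low end of WT. The log2 fold change of 0.83 (SE 0.84, 95% interval -1.26 to 2.92, adjusted p = 0.738 by limma) was -0.15 without MED13cTg 2 and -0.138 without MED13cTg 1 and 2. Nr1d2 was 28.3, 29.2 and 31.3 FPKM across WT 1 to 3 against 19.1, 58.6 and 28.4 FPKM across MED13cTg 1 to 3. Per2 was 5.02, 7.97 and 5.43 FPKM across WT 1 to 3 against 2.70, 15.4 and 6.42 FPKM across MED13cTg 1 to 3. For both, MED13cTg 1 was lowest, MED13cTg 2 was highest and MED13cTg 3 was within WT. Per3 was 18.2, 21.0 and 21.5 FPKM across WT 1 to 3 against 7.04, 44.4 and 21.3 FPKM across MED13cTg 1 to 3, the same order. Per1 (with Vamp2) was 78.6, 70.5 and 71.2 FPKM across WT 1 to 3 against 78.2, 90.8 and 73.1 FPKM across MED13cTg 1 to 3, the smallest spread of the 7 genes that were highest in MED13cTg 2.

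The output factors in WAT followed the same order. Dbp was 28.1, 22.6 and 29.0 FPKM across WT 1 to 3 against 10.4, 108 and 25.2 FPKM across MED13cTg 1 to 3, which put MED13cTg 2 4.06-fold above and MED13cTg 1 2.55-fold below the WT mean. Its log2 fold change of 0.22 (SE 0.82, 95% interval -1.80 to 2.24, adjusted p = 0.926 by limma) was -0.664 without MED13cTg 2 and -0.066 without MED13cTg 1 and 2. Tef was 42.1, 40.8 and 45.5 FPKM across WT 1 to 3 against 21.7, 113 and 41.4 FPKM across MED13cTg 1 to 3. Its log2 fold change of 0.13 (SE 0.59, 95% interval -1.34 to 1.60) was -0.0474 without MED13cTg 1 and 2. The library with the high repressor and output levels, MED13cTg 2, was the one with the highest summed adipocyte and the lowest summed epididymis level, and MED13cTg 1 had the lowest adipocyte and the highest germ cell level, as given above. The part of these cell types in the clock gene values was not tested. In MED13cTg 3, whose adipocyte sum of 17855 FPKM was inside the WT range, the log2 fold changes of the 9 genes against WT ran from -0.138 for Nr1d1 to 0.13 for Clock.

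Activators and repressors were next set against each other within each library, as the log2 ratio of FPKM + 1. The scale of a library largely cancels in a ratio where both genes are well above 1 FPKM. It does not for Npas2, or for Arntl in ventricles, whose levels were near or under that value. Nor does it for Arntl in MED13cTg 2 of WAT, at 0.909 FPKM. In all, 6 ratios were computed in each tissue, and for each the groups overlapped. In ventricles the log2 ratio of Nr1d1 to Npas2 was 4.38, 3.12 and 3.19 in WT and 4.91, 5.29 and 3.79 in MED13cTg, a difference of 1.10 (exact permutation p = 0.2), or 1.51 with 0.1 added to the FPKM instead of 1. That of Dbp to Npas2 was 5.49, 4.01 and 4.63 in WT and 6.01, 6.16 and 4.94 in MED13cTg, a difference of 0.99 (exact permutation p = 0.2). Both were higher in MED13cTg 1 and 2 than in any WT library, whereas MED13cTg 3 lay below WT 1. For Nr1d1 to Arntl, Dbp to Arntl and Nr1d1 to Clock the differences were 0.66, 0.56 and 0.56 (exact permutation p = 0.3, 0.5 and 0.5), and that of Per2 to Arntl was -0.025 (exact permutation p = 0.9). For each of these 4 ratios WT 1 exceeded both MED13cTg 1 and MED13cTg 3. With 1 library left out, Nr1d1 to Arntl ran from 0.328 without WT 2 to 1.09 without WT 1, Dbp to Arntl from 0.0966 without WT 2 to 0.964 without WT 1, and Nr1d1 to Clock from 0.111 without MED13cTg 2 to 1.01 without WT 1. Nr1d1 to Npas2 ran from 0.783 without MED13cTg 2 to 1.53 without MED13cTg 3, and Dbp to Npas2 from 0.642 without WT 2 to 1.38 without WT 1.

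**Figure D4:**
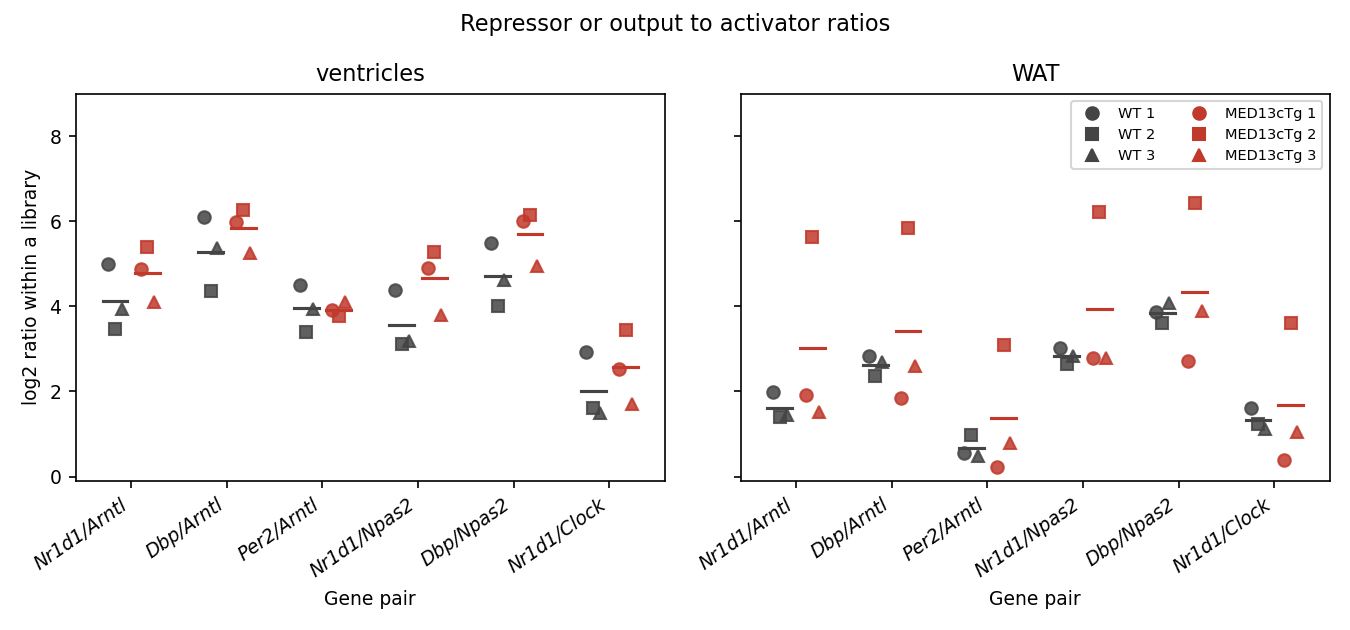
Log2 ratios of a repressor or output gene to an activator, on FPKM + 1 within each library, with 1 point per library (grey WT, red MED13cTg) and a line at each group's mean. In WAT the single high point of each ratio, from 3.10 for Per2 to Arntl up to 6.43 for Dbp to Npas2, is MED13cTg 2, and in ventricles the groups overlap.

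In WAT the ratio of Nr1d1 to Arntl was 1.99, 1.40 and 1.44 in WT and 1.92, 5.62 and 1.51 in MED13cTg, a difference of 1.41 (exact permutation p = 0.3). Dbp to Arntl was 2.83, 2.36 and 2.70 in WT and 1.84, 5.83 and 2.60 in MED13cTg, a difference of 0.80 (exact permutation p = 0.9). MED13cTg 2 combined the highest repressor and output levels with the lowest activator levels of Arntl and Npas2, and it was the highest library in all 6 ratios. The differences for Per2 to Arntl, Nr1d1 to Npas2, Dbp to Npas2 and Nr1d1 to Clock were 0.70, 1.10, 0.49 and 0.36 (exact permutation p = 0.8, 0.7, 0.8 and 1). Without MED13cTg 2 the difference for Nr1d1 to Arntl was 0.106 and those for the other 5 ratios were below 0, with -0.408 for Dbp to Arntl and -0.604 for Nr1d1 to Clock.

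The other genes of the clock pathway, 29 in 28 entries since Hspa1a and Hspa1b are joined in 1, comprised cryptochromes, ROR receptors, further bZIP factors, E-box repressors, the kinases and ubiquitin ligases of PER and CRY, output genes, and genes that answer to glucocorticoid and temperature. By limma 25 entries were tested in ventricles, of which 0 passed the adjusted threshold, 6 had a higher and 19 a lower mean in MED13cTg, with a median log2 fold change of -0.18, and 2 had an unadjusted p under 0.05, both lower. In WAT 25 were tested as well, of which 0 passed, 11 had a higher and 14 a lower mean, with a median of -0.22, and again 2 had an unadjusted p under 0.05, both lower. Without MED13cTg 1 and 2, 0 of the 25 had an unadjusted p under 0.05, 10 were higher and 15 lower, and the median was -0.04. These counts stand beside the shares of all genes given above. All MED13cTg libraries lay above WT for 1 of the 25 and below for 3 in ventricles, and above for 1 and below for 2 in WAT. By role, the mean log2 level in MED13cTg ventricles was lower for both cryptochromes, for Hlf and its antagonist Nfil3, for 4 of 5 kinase and ligase genes, for 4 of 5 output genes and for all 3 glucocorticoid genes. It was also lower for the 2 ROR receptors tested. It was higher for Arntl2 and 2 E-box repressors and lower for 1, and the temperature genes were split. For Cry2 the difference was -0.014 (SE 0.14), with -0.078 within the cluster of WT 1 and 0.22 within the other. In WAT the mean log2 level was lower for Hlf and Nfil3 and for the 3 glucocorticoid genes, and higher for both cryptochromes, though without MED13cTg 1 and 2 it was higher for Hlf, at 0.11, and lower for Cry2, at -0.17. The other roles tested in WAT held both directions. None of these directions passed the test for any of the genes.

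Fkbp5, which encodes a co-chaperone that glucocorticoid induces, was in both of these groups. In ventricles it was 52.3, 56.6 and 54.7 FPKM across WT 1 to 3 against 22.3, 15.9 and 45.3 FPKM across MED13cTg 1 to 3, with a log2 fold change of -1.07 (SE 0.34, 95% interval -1.89 to -0.26, unadjusted p = 0.0169, adjusted p = 0.966 by limma). The difference was -1.42 within the cluster of WT 1 and -0.29 within the other. In WAT, Fkbp5 was 142, 156 and 163 FPKM across WT 1 to 3 against 36.2, 51.3 and 127 FPKM across MED13cTg 1 to 3, with a log2 fold change of -1.30 (SE 0.48, 95% interval -2.49 to -0.10, unadjusted p = 0.0377, adjusted p = 0.738 by limma). The low WAT libraries were MED13cTg 1 and 2, whose epididymis, adipocyte and germ cell levels stood apart, and without them the log2 fold change was -0.28 (SE 0.13, unadjusted p = 0.106 by limma). The part of these cell types in the WAT values of Fkbp5 was not tested. Whether tissues of the same number came from the same mouse is not given in the sources used here. Of the other glucocorticoid genes, Tsc22d3, which encodes the leucine zipper protein GILZ, was 197, 167 and 168 FPKM in ventricles of WT 1 to 3 against 135, 111 and 165 FPKM in those of MED13cTg 1 to 3, without overlap (log2 fold change -0.38, SE 0.17). The difference was -0.68 within the cluster of WT 1 and -0.02 within the other, and in WAT the groups overlapped. Sgk1, a kinase gene of that group, overlapped in both tissues.

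Hlf, the other PAR bZIP factor beside Dbp and Tef, was 17.1, 17.2 and 19.4 FPKM in ventricles of WT 1 to 3 against 14.8, 14.5 and 14.6 FPKM in those of MED13cTg 1 to 3. The groups did not overlap, and the log2 fold change was -0.28 (SE 0.095, unadjusted p = 0.024, adjusted p = 0.966 by limma). Cirbp, which encodes an RNA-binding protein induced by cold, was 73.1, 60.5 and 64.2 FPKM in ventricles of WT 1 to 3 against 78.2, 74.3 and 74.9 FPKM in those of MED13cTg 1 to 3, the 1 pathway gene with every MED13cTg library on the higher side (log2 fold change 0.20, SE 0.11). Between the 2 ventricle clusters, 11 pathway genes were lower and 2, Ciart and Rorb, were higher in every library of the cluster of WT 1, beside the 17.1% and 23.1% of all genes given above. Rora, which encodes the receptor that activates Arntl through the RORE, was among the 11, with 1.497 FPKM in WT 1, 3.47 in MED13cTg 1 and 1.73 in MED13cTg 2 beside 6.96 to 8.53 FPKM in the other 3 libraries.

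**Figure D5:**
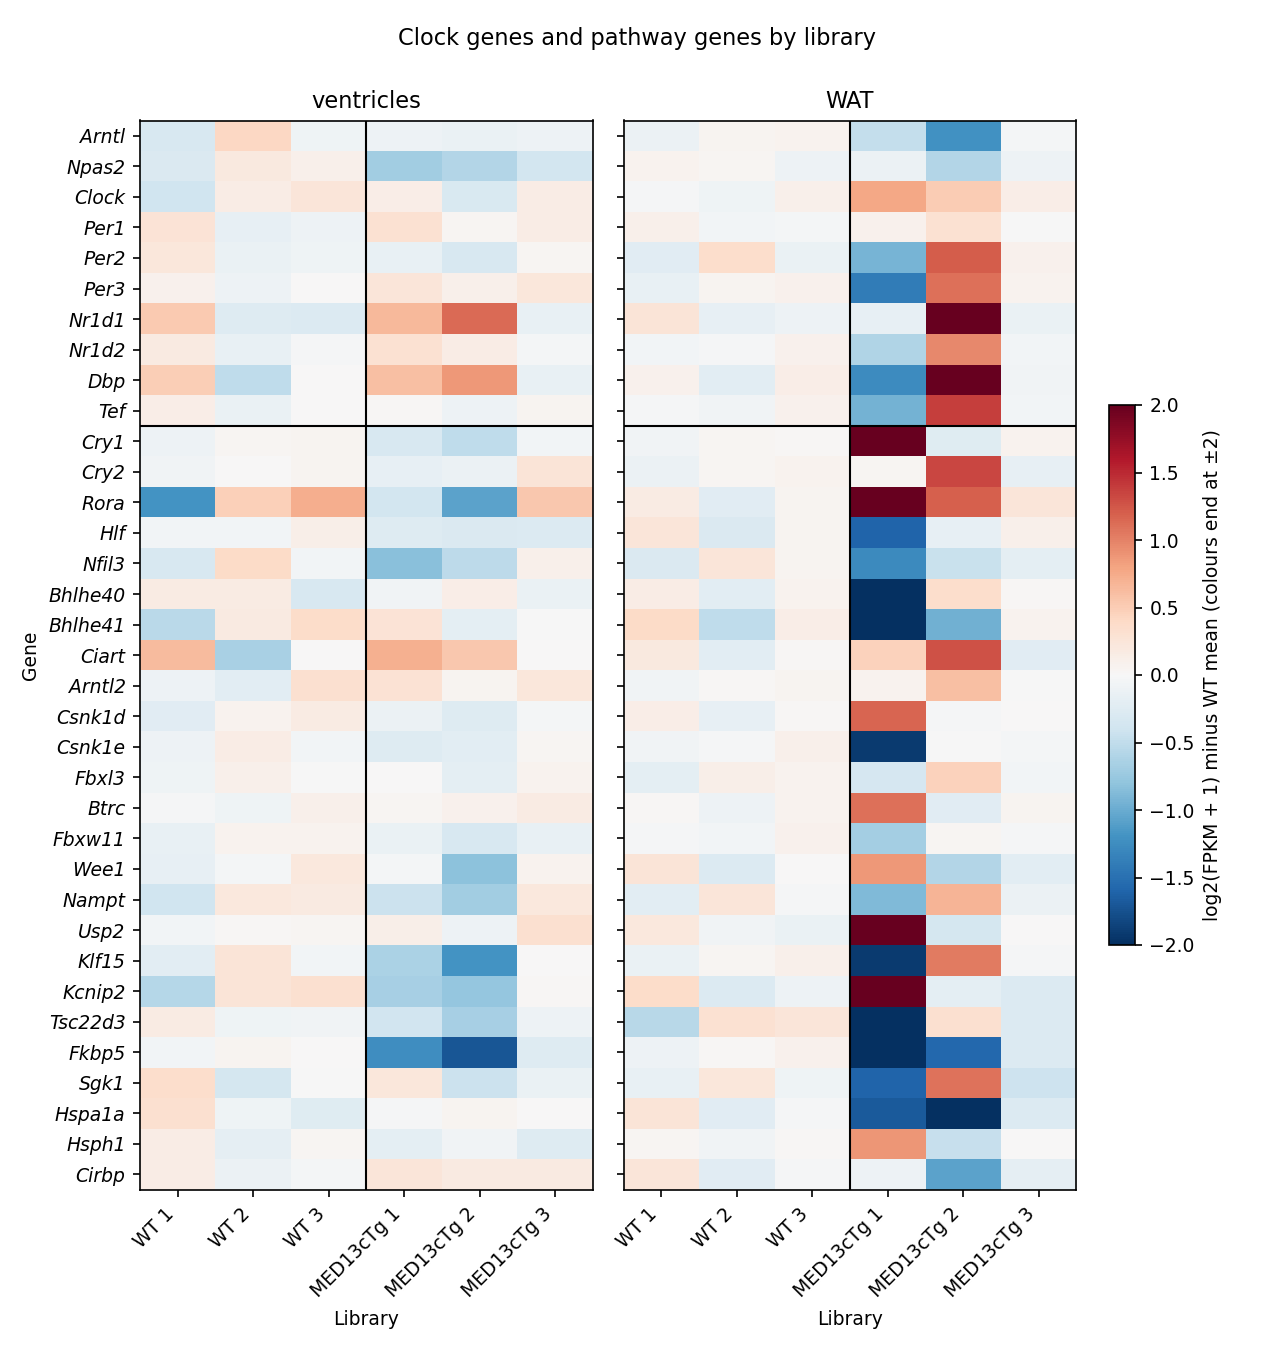
Log2(FPKM + 1) of the 10 clock genes (above the line) and 25 pathway genes (below it) in each library, minus the WT mean of that tissue, with red for higher and blue for lower and colours that end at 2 and -2. In ventricles WT 1 shares its pattern at Nr1d1, Dbp and Rora with MED13cTg 1 and 2, and in WAT the strong colours lie in MED13cTg 1 and 2.

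In WAT, the joined entry of the heat shock genes Hspa1a and Hspa1b was 18.9, 13.2 and 15.3 FPKM across WT 1 to 3 against 4.21, 1.79 and 12.8 FPKM across MED13cTg 1 to 3, without overlap (log2 fold change -1.51, SE 0.60, unadjusted p = 0.0474, adjusted p = 0.738 by limma). The low values were again in MED13cTg 1 and 2, the libraries whose marker sums stood apart, and without them the log2 fold change of this entry of Hspa1a was -0.27 (SE 0.23). Rora was 0.511, 0.157 and 0.411 FPKM across WT 1 to 3 against 9.51, 2.09 and 0.600 FPKM across MED13cTg 1 to 3, with every MED13cTg library above WT (log2 fold change 1.47, SE 0.74, adjusted p = 0.738 by limma), and without MED13cTg 1 and 2 the log2 fold change was 0.24 (SE 0.19). Rora passed the minimum of 1 FPKM only through MED13cTg, with a mean of 4.07 FPKM beside 0.360 FPKM in WT. Its highest value was in MED13cTg 1, the library with the high germ cell level. Other pathway genes, named here after their values were seen, stood apart in that library too. Cry1, a repressor of the ARNTL complexes, was 25.7 FPKM in MED13cTg 1 and 4.09 to 5.32 FPKM in the other 5 libraries. Usp2, a ubiquitin protease gene under clock control, was 115 FPKM there and 10.02 to 15.2 FPKM elsewhere. Without MED13cTg 1 and 2 the log2 fold changes were 0.072 for Cry1 and 0.0086 for Usp2. The part of the other cell types in these WAT values was not tested.

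The genes whose log2(FPKM + 1) followed Dbp and Arntl most closely over the 6 libraries of a tissue were sought among those with a mean of at least 5 FPKM, 9283 in ventricles and 10900 in WAT, and their r is a description over libraries that share depth, cluster and cell makeup. In ventricles, those near to Dbp included Hlx (r = 0.994), Carns1 (0.992), Snrpf (0.992) and Bcl2l12 (0.991). Hlx, for example, was 6.62, 3.76 and 5.16 FPKM across WT 1 to 3 against 6.58, 7.49 and 4.49 FPKM across MED13cTg 1 to 3, high in the same 3 libraries as Dbp. Nearest to Arntl in ventricles were Hnrnpf (0.979), Ascc2 (0.963), Gtf2e2 (0.958), Zfp362 (0.954) and 4930453N24Rik (0.953), all highest in WT 2. In WAT the 5 nearest to Dbp were Nol6 (0.999), Tgoln1 (0.998), Peg13 (0.997), the clock gene Tef (0.997) and Ppp1r9b (0.995). Those nearest to Arntl in WAT were Rps7 (0.997), Tspan1 (0.997), Dnajc12 (0.997), Bsph1 (0.996) and Adam7 (0.996). Adam7 is itself 1 of the 18 epididymis markers, at 3172, 3775 and 4826 FPKM across WT 1 to 3 against 515, 14.6 and 3713 FPKM across MED13cTg 1 to 3. Arntl and Adam7 had the same order of libraries in WAT, with MED13cTg 2 lowest and MED13cTg 1 next, which follows from the choice of Adam7 by its r.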

How the data were processed

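RNA from ventricles and epididymal fat of WT and MED13cTg mice was sequenced by the authors from TruSeq libraries, with 3 libraries per genotype and tissue. The authors aligned the reads with TopHat, estimated FPKM with Cufflinks at default settings and deposited FPKM values in 1 table per tissue. The build in the submitters' processing notes is mm9, and versions are not given in the sources used here. The labels and the methods differ on the age of the mice and on the amount of RNA per library. FPKM does not correct for the cell makeup of a sample and keeps no depth, so that precision rests on the number of libraries. Each table holds 23042 entries, of which 341 join several symbols and 31 have no name. Columns of the authors' means and folds, and 1 unnamed column of values in the WAT table, were not used.

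In each tissue, genes whose FPKM averaged 1 or more across its 6 libraries were fitted on log2(FPKM + 1) with limma 3.58.1 (lmFit and eBayes with trend) in R 4.3.3, with no covariate, and p-values were adjusted by Benjamini-Hochberg over all genes tested with a threshold of 0.05. The fit was tested on simulated data, drawn with the spread of the WT libraries in both groups and without library clusters. That check does not cover the wider spread of the MED13cTg libraries in WAT or the ventricle clusters. Exact two-sided permutation tests were used for single values. Tables were read with pandas 2.3.3 and numpy 2.4.6 under Python 3.11.15, libraries were divided into 2 clusters by average linkage on their rank correlations in scipy 1.17.1, and figures were made in matplotlib 3.10.9. Alternatives were a pseudocount of 0.1, no minimum or a minimum of 5 FPKM, quantile normalization, scaling by the median of ratios, no trend, a replicate block, each library left out, the ventricle cluster as a covariate, and WAT without MED13cTg 1 and 2. In WAT the deviations of same-numbered libraries from their group means correlated at 0.347, 0.304 and 0.144, while WT 3 correlated with MED13cTg 2 at 0.168. The labels give no pairs. With 3 libraries per group, of which MED13cTg 1 and 2 stood apart in cell markers, these values cannot show that the numbers mark pairs. The block is therefore an alternative only.

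The clock genes, the pathway and marker lists and the tests were chosen with earlier results of these data known. Genes named are the 10 clock genes, Med13, pathway genes with an unadjusted p under 0.05 or no overlap between genotypes, and the 5 genes most like Dbp and Arntl in each tissue, and exceptions are marked or stand in for a group. Some genes within these rules are not reported here. Ciart was found under its older symbol Gm129. Positions of genes are the loci of the tables, which can extend beyond the gene.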

Additional observations from a re-analysis of the deposited data

Results flagged for a closer look

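Cirbp was the only gene of the clock and pathway lists, among those tested in both tissues, for which every MED13cTg library lay on opposite sides of the WT mean in ventricles and in WAT. Its log2 fold change was 0.20 in ventricles (SE 0.11) and -0.46 in WAT (SE 0.34), a difference of 0.658. In WAT it was 146, 105 and 121 FPKM across WT 1 to 3 against 114, 57.8 and 108 FPKM across MED13cTg 1 to 3, and the groups overlapped. Without MED13cTg 1 and 2, the WAT libraries whose cell markers stood apart, the log2 fold change of Cirbp in WAT was -0.19 (SE 0.22). The difference between tissues was not tested, since their tables were estimated separately, and neither tissue's value passed the adjusted threshold of limma.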

How the results depend on the processing

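By limma 0 clock genes and 0 pathway genes passed the adjusted threshold in any setting of either tissue, with 0 to 2 clock genes in ventricles and 0 to 1 in WAT at an unadjusted p under 0.05. Npas2 in ventricles kept its sign, from -0.95 with a pseudocount of 0.1 to -0.431 with the library cluster as a covariate, with adjusted p from 0.425 to 1. Of all genes in ventricles 7 were called, against 31 without a minimum, 3 with a minimum of 5 FPKM and 4 with the replicate block, and 4 to 9 with 1 library left out. The lowest, 4, came without MED13cTg 1 or MED13cTg 2. Same-numbered ventricle libraries correlated at 0.0855, -0.192 and 0.14, and the labels give no pairs. In WAT 2 genes were called, against 1 without a minimum, 0 with the replicate block and 19 without MED13cTg 1 and 2, and 1 to 5 with 1 library left out, 5 without WT 1 or WT 3 and 1 without MED13cTg 2 or MED13cTg 3. The block changed no call of a clock gene. The cause of these shifts was not tested, beyond fewer genes or samples in the fit.

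In ventricles the sign turned for Clock with the library cluster as a covariate (0.13; -0.205 to 0.141 with 1 library left out), for Tef with median-of-ratios scaling (0.00261) and quantile normalization (0.0688; -0.0722 to 0.0583 with 1 library left out), and for Per2 to Arntl with a pseudocount of 0.1 (0.0308; -0.301 to 0.251 with 1 library left out). In WAT without MED13cTg 1 and 2, a fit of 3 against 1 that assumes the lone library to vary like WT, it turned for Per1 (-0.00534), Per3 (0.072), Nr1d1 (-0.138), Nr1d2 (-0.0573), Dbp (-0.066) and Tef (-0.0474), and for Per2 with quantile normalization (-0.0262). With 1 WAT library left out the log2 fold changes ran from -0.423 to 0.648 for Per2, -0.662 to 0.586 for Per3, -0.15 to 1.33 for Nr1d1, -0.329 to 0.453 for Nr1d2, -0.664 to 0.961 for Dbp and -0.497 to 0.667 for Tef. The ratio differences ran from -0.408 to 1.59 for Dbp to Arntl, -0.167 to 1.27 for Per2 to Arntl, -0.038 to 1.68 for Nr1d1 to Npas2, -0.552 to 1.31 for Dbp to Npas2 and -0.604 to 1.01 for Nr1d1 to Clock. The turns came without MED13cTg 2, and for Per3 without MED13cTg 1. Arntl in ventricles and Npas2 in WAT have a value only without a minimum. The 3 libraries a group limit the precision of all these values, and the depth is unknown.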
